A study of Bos taurus with 19 samples.

Results

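Theca interna of large healthy follicles was compared with that of small healthy follicles on 14 of the 19 bovine arrays of the series. The members were chosen by sample title and not by any signal. They are the 4 arrays titled large healthy and the 10 titled small healthy, of which 5 came from follicles with rounded and 5 from follicles with columnar basal granulosa cells. The remaining 5 arrays, of small atretic follicles, entered none of the comparisons below. All follicles came from non-pregnant Bos taurus heifers at slaughter, with no treatment given to the animals. The small follicles were 3 to 5 mm across and the large ones over 9 mm by the sample records. Granulosa cells were scraped off before the theca interna was dissected and frozen. By the records RNA was taken with Trizol and RNeasy columns from large follicles but with RNeasy mini columns from small healthy follicles, and 2 to 5 µg was labelled, while the methods of the study describe 1 procedure for all thecal samples, so follicle size and RNA procedure cannot be told apart in these arrays if the records are right. It is not stated that each array is from a different animal. The p-values treat the arrays as independent and may be too small if follicles shared an animal.

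The theca interna is the vascular inner coat of the follicle wall. Its steroidogenic cells make androgens under LH, which the granulosa cells turn into estrogens, and they lie among fibroblasts, capillaries, pericytes and leukocytes in a collagen-rich matrix. As the antrum fills the layer spreads over a much larger surface, so its cells, vessels and matrix are all built up during antral growth. In whole tissue, fewer cells of a type and less RNA per cell cannot be told apart.

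Steroidogenic identity was checked first. INSL3, the insulin-like hormone made by theca cells, had a log2 signal of 11.9, 12.1, 12.5 and 12.4 in large follicles 1 to 4 and of 11.7 to 12.4 in the small ones. Other theca cell markers were less uniform. CYP17A1 was 6.1 to 9.2 in the large and 5.2 to 8.6 in the small follicles, and STAR 7.2 to 10.8 and 6.2 to 9.9. CYP11A1 was 9.5 to 10.8 and 9.8 to 10.5, and HSD3B1 8.9 to 9.9 and 8.7 to 9.9. The LH receptor LHCGR was low, at 3.2 to 4.7 and 2.8 to 4.3. The erythroid markers HBA, HBB and ALAS2 lay at 1.7 to 3.1 in the large follicles, near or under the detection limit of 3. FSHR, the granulosa cell receptor for FSH, was at 1.7 to 2.4 in the large follicles, whereas CYP19A1, the granulosa cell aromatase, read 1.9, 5.8, 3.7 and 3.3 in large follicles 1 to 4 against a small median of 2.0. In large follicle 2 the granulosa cell genes INHBA and FST were also above every small follicle, at 10.3 against a small high of 9.1 and at 10.2 against 9.6. Its mean over 9 granulosa cell genes was 7.97, where the other large follicles had 6.36, 7.26 and 6.81 and the small ones 6.40 to 7.32. The study left out 1 of its large-follicle samples for its granulosa cell genes. The 4 large arrays of the series match the number that remained after this, although the labels do not carry the study's sample names. Poly-A controls, bacterial RNAs added to each sample before labelling, averaged 5.88 ± 0.28 (SD, n = 4) in the large and 4.57 ± 0.22 (SD, n = 10) in the small group over 24 probe sets. The ranges of 5.63 to 6.27 and 4.20 to 4.88 did not overlap, and a two-sided exact permutation test gave p = 0.000999, the lowest value possible with 1001 splits. This difference in added RNA went with follicle size, so the 2 cannot be told apart in these arrays, and its cause was not tested. The hybridization controls differed by 0.15 (exact permutation p = 0.0959), and array medians were 3.8 to 3.9.

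Signals are log2 values per probe set, a group of probes for 1 transcript, so a difference of 1 is 2-fold. Of 24127 probe sets, 15570 had a log2 signal above 3 in 50% or more of a titled group's arrays, with controls left out. A probe set was called when its limma p, adjusted by Benjamini-Hochberg over these 15570, was under 0.05 and the difference was at least 2-fold. On this rule 98 probe sets (0.629%) were higher and 12 (0.0771%) lower in large follicles, for 62 and 5 genes by the array annotation. Without the limit on fold, 404 (2.59%) were higher and 153 (0.983%) lower. The median difference over all tested probe sets was -0.005, and the 95% interval of a difference had a median half-width of 0.27.

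Separation of the follicles was incomplete for most of the called probe sets. All 4 large follicles lay above all 10 small ones for 43 of the 98, against 1.09% of all tested probe sets, and all 4 lay below for 4 of the 12, against 0.488%. In a further 43 of the 98, 3 large follicles were above every small one and the other was inside the small range. That other was large follicle 1 for 20 probe sets, large 2 for 11, large 3 for 8 and large 4 for 4. Over all tested probe sets the same order held, with 1.71% for large 1 and 0.373% for large 4. Most called transcripts were changes of degree, and 17 of the 98 had a small mean under 3, where a fold is uncertain. For 6 of the 98 every small array, and for 1 of the 12 every large array, was at or under the detection limit of 3, so that their folds are only bounds. Leaving out 1 array at a time gave 54 to 162 calls. The lowest count was without large follicle 4, while 162 were called without large 1, and 70 and 72 without columnar follicles 1 and 2. Called in all 14 of these fits were 34 of the 110 probe sets. Without large follicle 2 and small columnar follicle 1, the array with the most CYP19A1 in each size group, 59 probe sets were called in place of 110, and 50 of them were among the 110.

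**Figure D1:**
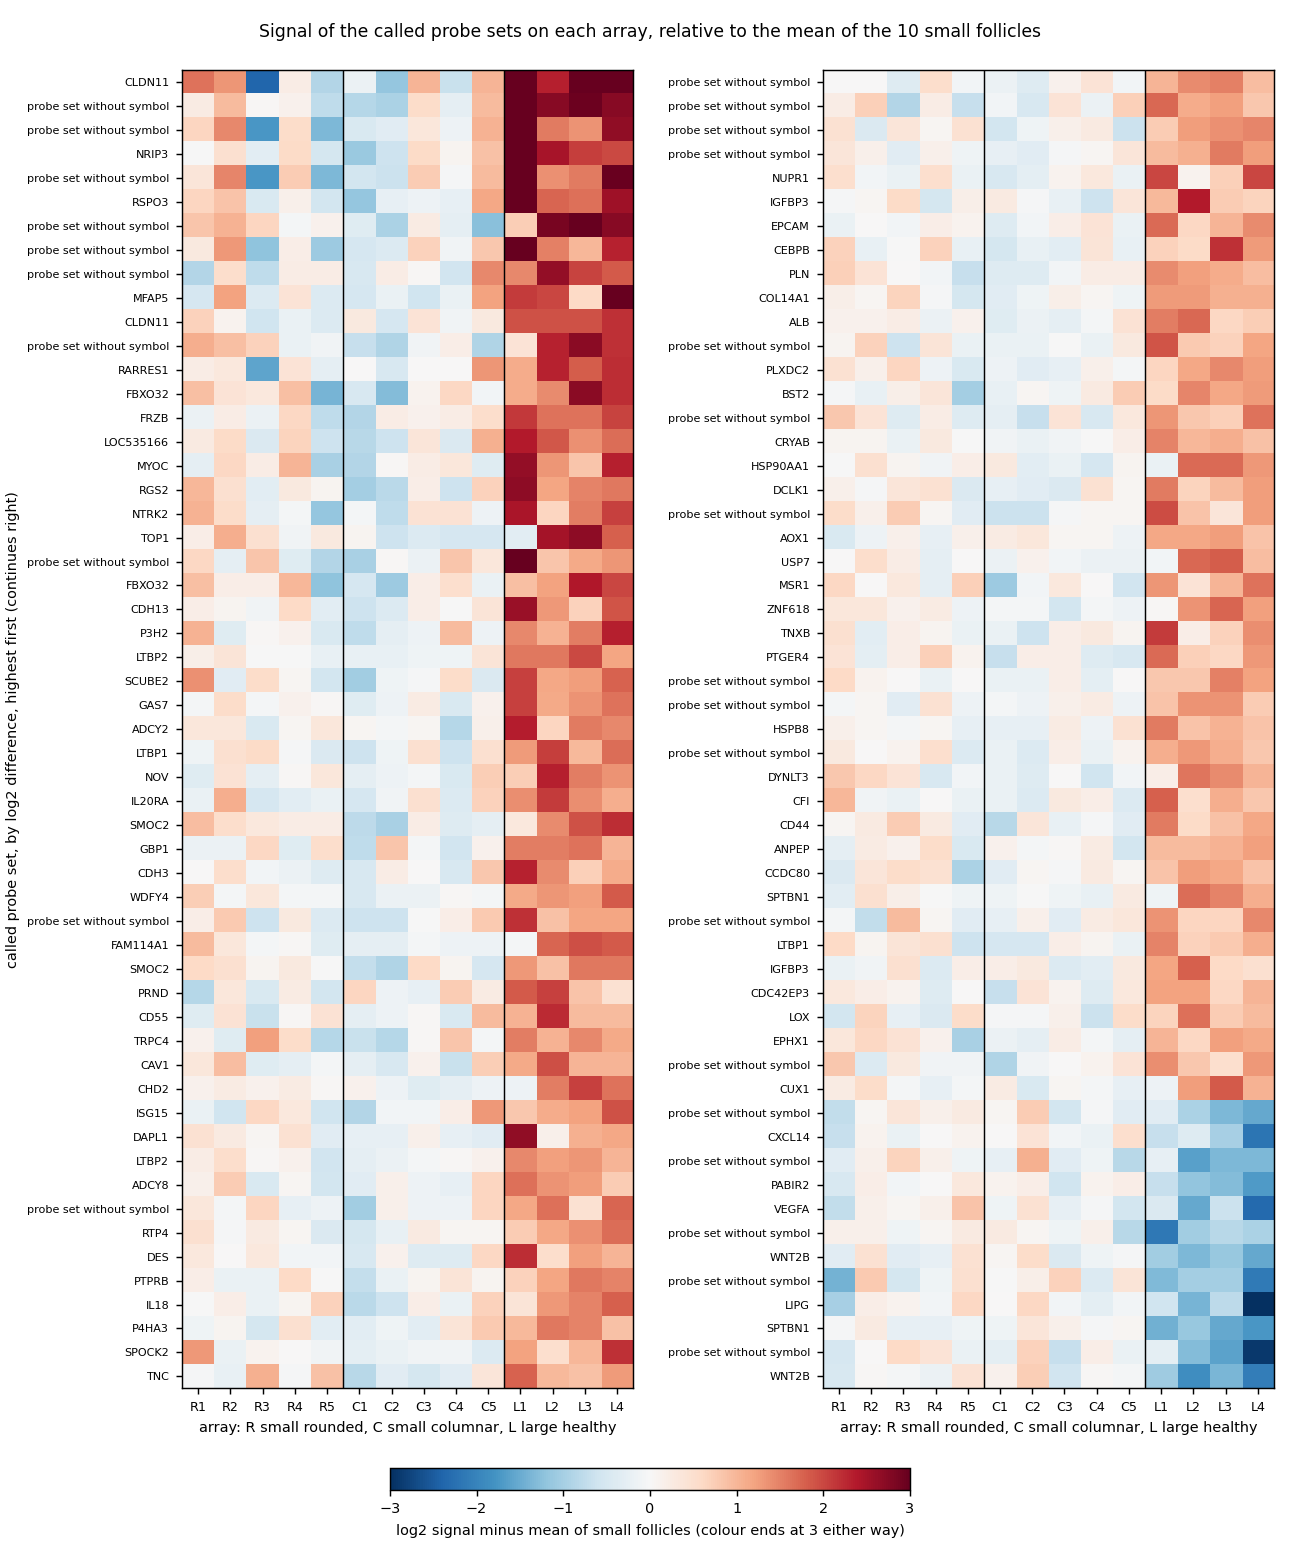
Log2 signal of the 110 called probe sets on each of the 14 arrays, minus the mean of the 10 small follicles, ordered by the difference from highest to lowest, with small rounded (R), small columnar (C) and large (L) arrays in columns. The 98 higher probe sets are red across most large arrays, with pale cells in large follicle 1 for TOP1, CHD2, USP7 and FAM114A1, and the 12 lower ones close the right panel in blue.

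Among Wnt pathway genes the largest differences were in secreted regulators and in 1 ligand, in opposite directions. Wnt ligands act on frizzled receptors, R-spondins keep those receptors at the cell surface, and frizzled-related proteins bind ligands outside the cell. Of 20 genes tested in this list, which includes the cadherin CDH3, 3 were called higher and 1 lower, each by its brightest probe set. Over all 7366 genes 0.72% were called higher and 0.0543% lower. All gene lists here were written with the study's results from these arrays known. Their counts, medians and means are therefore no independent support. The median difference of the list was 0.10, against -0.01 over all genes, and single members ran from -1.60 to 2.45.

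RSPO3, an R-spondin, read 7.9, 5.8, 5.7 and 6.6 in large follicles 1 to 4. The small follicles spanned 2.9 to 5.2 with a median of 3.85. All 4 large follicles were above all small ones, by 2.45 ± 0.42 (SE), or 5.46-fold (adjusted p = 0.00815), and the call held in all 14 fits with an array left out. FRZB, a secreted antagonist of Wnt ligands, was 7.7, 7.2, 7.2 and 7.6 against 4.7 to 6.2, a difference of 1.86 ± 0.24 (SE, adjusted p = 0.00133).

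WNT2B, the ligand, went the other way on both of its probe sets. The brighter one read 5.6, 4.8, 5.3 and 4.6 in the large follicles and 6.1 to 7.4 in the small ones, with a difference of -1.60 ± 0.22 (SE, adjusted p = 0.00168), and the dimmer one read 3.0 to 3.5 in the large and 4.1 to 5.1 in the small follicles, with a difference of -1.27 ± 0.19 (SE, adjusted p = 0.00285). No large follicle reached a small one on either probe set. CDH3, the P-cadherin of cell contacts, was 7.2, 6.3, 5.6 and 6.0 against a small median of 4.85 and a small high of 5.7, so that only large 3 fell inside the small range (1.40 ± 0.27 SE, adjusted p = 0.0147). SFRP2, another antagonist, differed by 1.29 without passing the test (adjusted p = 0.127), since its large values ran from 2.2 to 5.0. The transcription factor LEF1 differed by -0.77 (adjusted p = 0.0747) and the pathway target AXIN2 by 0.55 (adjusted p = 0.068).

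The latent TGFβ binding proteins LTBP1 and LTBP2 were higher in the large follicles, and so was the ligand TGFB3. LTBP1 and LTBP2 belong to the fibrillin microfibrils, and LTBP1 tethers latent TGFβ to the matrix. Of 20 TGFβ and BMP genes, 2 were called higher and 0 lower, and without the fold limit 4 were higher and 1 lower, where 2.44% and 0.76% of all genes were. LTBP1 was 4.6, 5.4, 4.3 and 5.0 in the large follicles against 2.7 to 3.9 in the small ones, above them in 4 of 4, by 2.82-fold (adjusted p = 0.00773). A further probe set, named LTBP1 in the study's list but without a symbol in the annotation, differed by 1.02 ± 0.23 (SE, adjusted p = 0.0282).

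LTBP2 was near the detection limit of 3 in the small follicles. Its brighter probe set read 4.3, 4.1, 4.2 and 3.9 in the large follicles and 2.3 to 3.4 in the small ones, a difference of 1.26 ± 0.15 (SE, adjusted p = 0.000911). With 2 of the 10 small arrays over the limit, it too passed only through the large follicles. The other read 4.1, 4.1, 4.5 and 3.7 against 2.3 to 2.9 and differed by 1.58 ± 0.15 (SE, adjusted p = 0.000139). All small values of the latter were under the limit, which it passed only through the large follicles, and against the limit it was at least 2.14-fold higher. TGFB3, a ligand, was 5.2, 4.4, 4.4 and 4.6 against a small high of 4.3. That is 0.93 ± 0.23 (SE, adjusted p = 0.0396), short of 2-fold. ACVR2B, an activin receptor, rose by 0.47 ± 0.11 (SE, adjusted p = 0.0311), and ID1, a target of BMP signaling, fell by 0.55 ± 0.12 (SE, adjusted p = 0.0246). The mean over the 20 genes was 5.48 to 5.56 in the large and 4.99 to 5.46 in the small follicles.

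**Figure D2:**
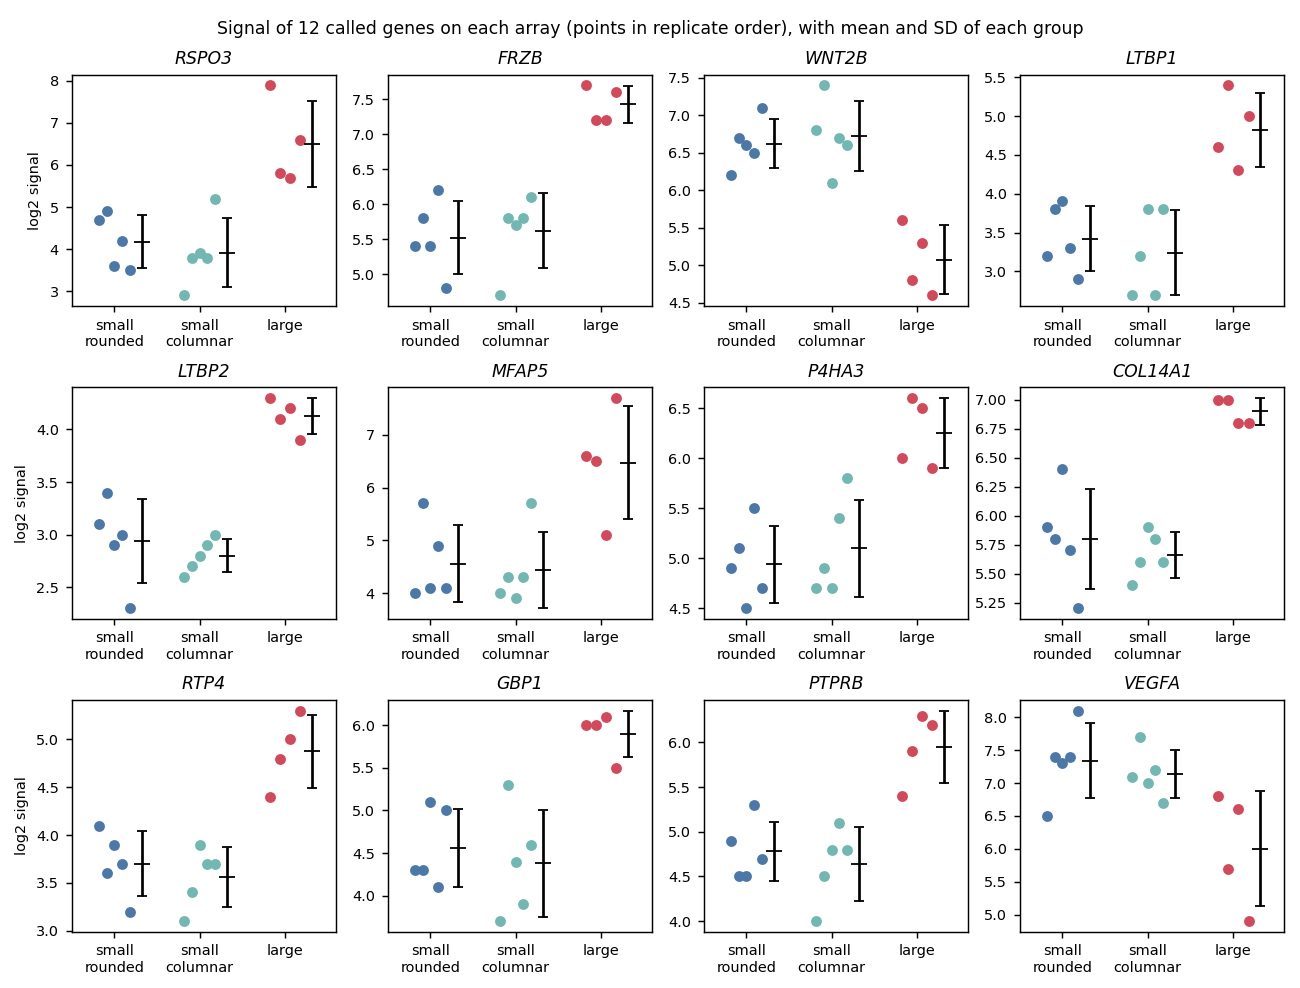
Log2 signal of 12 called genes on each array, with small rounded, small columnar and large follicles on the horizontal axis and black bars for the mean and SD of each group. The 4 large points lie above all small ones for RSPO3, FRZB, LTBP1, LTBP2, COL14A1, RTP4, GBP1, PTPRB and P4HA3 and below them for WNT2B, whereas MFAP5 and VEGFA overlap.

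Extracellular matrix lists held the most calls of the lists described, and these were mainly modifying enzymes and matricellular proteins rather than the abundant collagens. Of 23 genes for matricellular proteins and collagen modification, 8 were called higher and 0 lower, where 0.72% of all genes were called higher. Like the other lists, this one was written with the study's results from these arrays known, so its counts, median and mean are no independent support. The median of this list was 0.51, and the list mean was 7.30, 7.30, 7.14 and 7.18 in large follicles 1 to 4, all above the small range of 6.52 to 6.87. With all probe sets of a gene averaged the list median was 0.26. Of 24 fibroblast and fibrillar matrix genes, 1 was called higher, 8 were higher and 0 lower without the fold limit, and the median was 0.36. The fibroblast markers DCN and LUM had differences of -0.05 and -0.31 with adjusted p of 0.811 and 0.266.

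Enzymes that modify or link collagen were called for 3 genes. P3H2, a prolyl 3-hydroxylase, read 5.6, 5.2, 5.7 and 6.5 in the large follicles against a small median of 4.0 and a small high of 5.2, the level of large follicle 2 (1.59 ± 0.31 SE, adjusted p = 0.0145). Without large follicle 4 its adjusted p was 0.063. P4HA3, a subunit of prolyl 4-hydroxylase, was 6.0, 6.6, 6.5 and 5.9 against 4.5 to 5.8, a full separation with a difference of 1.23 ± 0.22 (SE, adjusted p = 0.00938). The sister subunits P4HA1 and P4HA2 differed by 0.22 and -0.04 without passing the test. LOX, which crosslinks collagen and elastin, was 5.3, 6.3, 5.4 and 5.6 against a small high of 5.3 (1.01 ± 0.25 SE, adjusted p = 0.0408) and was called in 4 of the 14 fits with an array left out.

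Microfibril and fibril-associated components also differed. MFAP5, a microfibril glycoprotein, was 6.6, 6.5, 5.1 and 7.7 in the large follicles and 3.9 to 5.7 in the small ones, with large 3 inside the small range (1.98 ± 0.43 SE, adjusted p = 0.0243). Its adjusted p was 0.0539 without large follicle 2 and 0.103 without large 4. COL14A1, a collagen on the surface of fibrils, was named through the study's list and read 7.0, 7.0, 6.8 and 6.8 against 5.2 to 6.4, by 1.17 ± 0.16 (SE, adjusted p = 0.00167). COL1A1, the main chain of type I collagen, was 9.5, 9.7, 9.7 and 9.4 against a small high of 9.3 and rose by 0.77 ± 0.15 (SE, adjusted p = 0.0142), less than 2-fold. MFAP2, THY1, MFAP4, ELN, SPARC and COL1A2 also passed the test, at 0.40 to 0.90.

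Matricellular proteins lie in the matrix and act on cell attachment. Tenascins TNC and TNXB were higher by 1.22 ± 0.30 and 1.09 ± 0.27 (SE), with adjusted p of 0.0392 and 0.0396. Large follicle 1 was the highest for both, at 5.6 and 6.0, and large 2 and 3 at 4.8 and 4.7 for TNC lay under the highest small value of 4.9. Each was called in 4 of 14 fits with an array left out, and a second, dimmer TNC probe set differed by -0.25 (adjusted p = 0.105). CCDC80, a matrix protein, was 7.6, 8.0, 7.9 and 7.6 against a small high of 7.3, a full separation of 1.04 ± 0.22 (SE, adjusted p = 0.0249). CD44, the hyaluronan receptor, was 5.8, 4.8, 5.1 and 5.4 against a small high of 5.0 (1.05 ± 0.24 SE, adjusted p = 0.0311). With an array left out CCDC80 was called in 8 and CD44 in 10 of the 14 fits. SMOC2, a secreted calcium-binding matrix protein, was called on both of its probe sets, by 1.47 ± 0.35 and 1.34 ± 0.27 (SE), with adjusted p of 0.0358 and 0.0161 and calls in 6 and 12 of the 14 fits. NOV, a matricellular CCN protein named through the study's list, was 4.4, 6.0, 5.2 and 5.0 against 3.2 to 4.4 (1.49 ± 0.25 SE, adjusted p = 0.00773), and its relative WISP2 rose by 0.71 ± 0.11 (SE, adjusted p = 0.00321).

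Basal lamina genes had small differences, and for all 12 tested the 95% interval excluded a 2-fold difference. Of these, 0 were called and 0 passed the test without the fold limit. Over all genes 0.72% were called higher and 0.0543% lower, so 0 calls among 12 is near the share of all genes. COL4A1, a chain of the collagen IV network, was 11.5 to 11.7 in the large and 11.5 to 11.8 in the small follicles. Among 14 genes of matrix proteolysis, ANPEP, an aminopeptidase of the cell surface, was the 1 called, at 4.9, 4.9, 5.0 and 5.2 against 3.4 to 4.5 (1.04 ± 0.17 SE, adjusted p = 0.00562). TIMP1, an inhibitor of matrix metalloproteinases, rose by 0.57 ± 0.13 (SE, adjusted p = 0.0287). In the IGF system 1 of 9 genes was called, the binding protein IGFBP3, whose brighter probe set was 8.6, 9.2, 8.0 and 7.9 against 7.0 to 7.9 (1.02 ± 0.22 SE, adjusted p = 0.0269), with large 4 at the highest small value. Without large follicle 2, the array with the most CYP19A1, its difference was 0.76 (adjusted p = 0.0666).

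**Figure D3:**
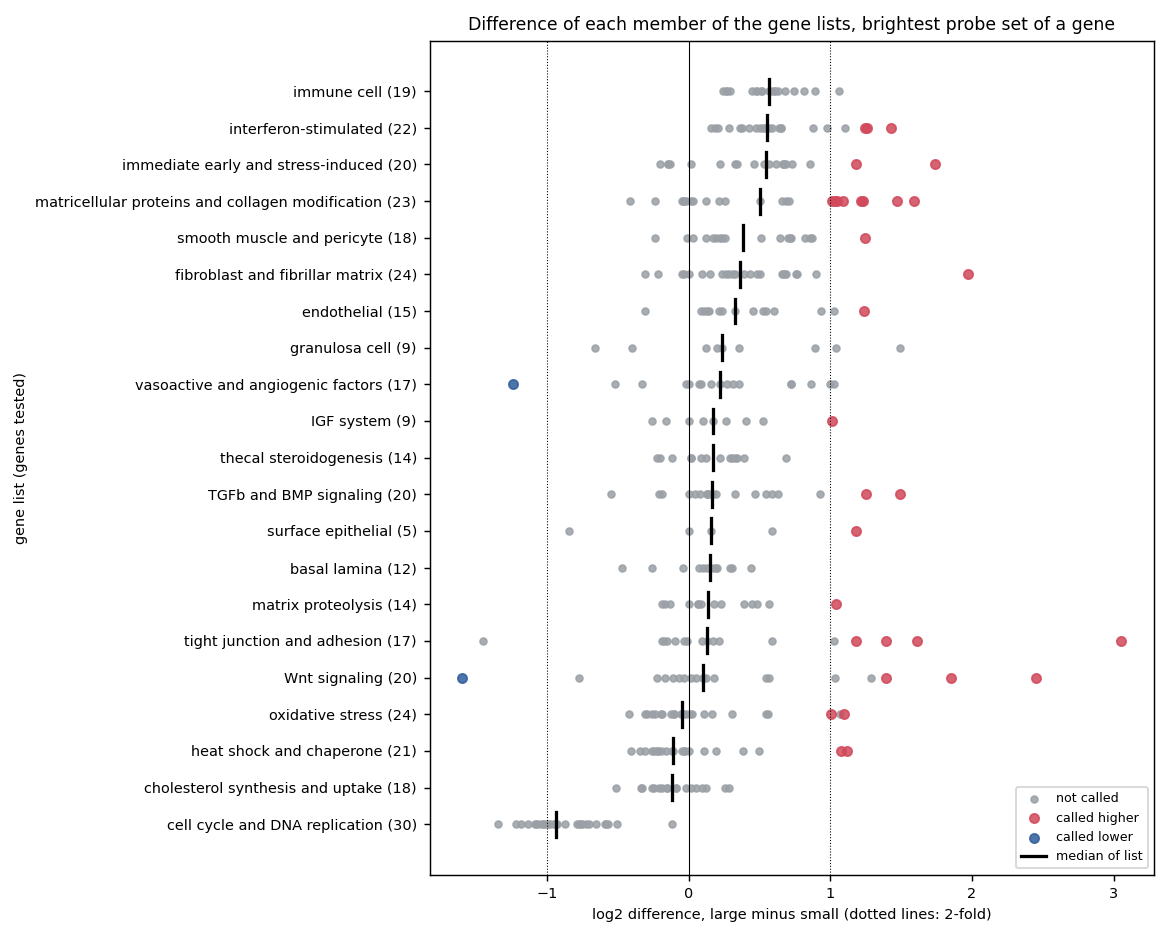
Log2 difference, large minus small, of every tested member of 21 gene lists, each gene by its brightest probe set, with called genes in colour and a black bar at the median of each list. The matricellular list holds 8 red points past the 2-fold line, while the cell cycle list has all 30 genes below 0 and none called.

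Junction and adhesion genes held 4 calls among 17, all higher, where 0.72% of all genes were called higher. Besides CDH3, which the Wnt list counts too, they were CLDN11, CDH13 and EPCAM. CLDN11, a tight junction protein, was the largest difference of all and read 8.5, 7.3, 8.0 and 8.3 on its brighter probe set, where the small follicles ranged widely from 2.6 to 6.6 (3.06 ± 0.60 SE, adjusted p = 0.0158). This call was lost without large follicle 4 (adjusted p = 0.0613) and against the rounded follicles alone (adjusted p = 0.178). The dimmer probe set had a smaller spread, at 5.2, 5.2, 5.2 and 5.5 against 2.7 to 4.0 (1.98 ± 0.21 SE, adjusted p = 0.000321), and was called in all 14 fits with an array left out. CDH13, a cadherin anchored to the membrane by lipid, was 5.6, 4.3, 3.7 and 4.9 against 2.4 to 3.6, a full separation of 1.62 ± 0.28 (SE, adjusted p = 0.00815). The epithelial surface gene EPCAM was 3.5, 2.4, 2.8 and 3.2 against 1.4 to 2.2 (adjusted p = 0.00285). All of its small values and 2 of its large ones were under the detection limit of 3, so no fold is given. EPCAM passed that limit only through the large follicles, so its place among the 4 calls is no support. CLDN1, another claudin, differed by -1.45 without passing the test (adjusted p = 0.109), as its small values ran from 3.0 to 6.3.

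Without the fold limit, 2 of 15 endothelial and 5 of 18 smooth muscle and pericyte genes passed the test, all higher. Over all genes 2.44% passed as higher. PTPRB, a phosphatase of vascular endothelium, was 5.4, 5.9, 6.3 and 6.2 in the large follicles against 4.0 to 5.3, a full separation of 1.24 ± 0.20 (SE, adjusted p = 0.00642). It was the 1 call among 15 endothelial genes, of which 14 had positive differences, where 47.1% of all genes did, with a median of 0.33. The endothelial marker VWF was 4.4, 3.4, 4.0 and 4.7 against 2.5 to 4.0 and PECAM1 was 7.5, 7.3, 6.9 and 7.4 against a small mean of 6.75, and neither passed the test (adjusted p = 0.0543 and 0.102). The part of vessel content in the PTPRB difference was not tested.

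DES, the muscle intermediate filament desmin, read 5.9, 4.2, 4.9 and 4.7 against 3.2 to 4.3 (1.25 ± 0.25 SE, adjusted p = 0.0187). Without large follicle 1 its difference was 0.92, short of 2-fold. It was the 1 call among 18 smooth muscle and pericyte genes, 16 of which had positive differences. The median of the list was 0.39, and 0.62 with all probe sets of a gene averaged. TPM2, LMOD1, CAV1 and MYLK, genes of contraction and caveolae, passed the test at 0.82, 0.72, 0.70 and 0.51. A dimmer CAV1 probe set, not counted for the list, was called at 1.28 ± 0.27 (SE, adjusted p = 0.0221). The list mean was 7.90, 7.51, 7.32 and 7.31 in large follicles 1 to 4 and 6.76 to 7.49 in the small ones, so the groups overlapped. ACTA2, the smooth muscle actin, was 11.6, 11.6, 11.1 and 11 and did not pass (0.65, adjusted p = 0.165).

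VEGFA, the main angiogenic growth factor, was lower in large follicles, at 6.8, 5.7, 6.6 and 4.9 against 6.5 to 8.1 (-1.24 ± 0.32 SE, adjusted p = 0.0441). Large 1 and 3 lay inside the small range, and the call held in 3 of the 14 fits with an array left out. A dimmer VEGFA probe set read 3.6, 3.0, 3.9 and 2.8 against 3.3 to 4.4 and did not pass (-0.445, adjusted p = 0.233). Of 17 vasoactive and angiogenic genes VEGFA was the only 1 called, and AGTR1, the angiotensin receptor, rose by 0.73 ± 0.19 (SE, adjusted p = 0.0499).

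Interferon-stimulated genes, which cells switch on after interferon binding, were all on the higher side. All 22 tested had positive differences, with a median of 0.56, where 47.1% of all genes were positive. Calls were made for 3, and 9 of the 22 passed the test without the fold limit. The list mean was 5.54, 5.62, 5.57 and 5.86 in the large follicles and 4.63 to 5.41 in the small ones, with no overlap.

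GBP1, an interferon-induced GTPase, was 6.0, 6.0, 6.1 and 5.5 against 3.7 to 5.3 (1.43 ± 0.26 SE, adjusted p = 0.00957). RTP4 was 4.4, 4.8, 5.0 and 5.3 against 3.1 to 4.1 (1.25 ± 0.18 SE, adjusted p = 0.00285), and both separated fully and were called in 14 of 14 fits with an array left out. ISG15, a ubiquitin-like protein, was 6.7, 7.0, 7.1 and 7.8 against 5.0 to 7.2, so that only large 4 exceeded every small follicle (1.26 ± 0.32 SE, adjusted p = 0.0449), and it was called in 4 of the 14. BST2, an antiviral membrane protein outside the counts of the list because its name came from the study's list, was 5.8, 6.7, 6.4 and 6.5 against 4.2 to 6.0 (1.12 ± 0.24 SE, adjusted p = 0.0261). STAT2 and IRF9, the transcription factors that carry the interferon signal, were above all small follicles in 4 of 4 and rose by 0.48 ± 0.10 and 0.88 ± 0.20 (SE), with adjusted p of 0.0193 and 0.028.

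Of 19 leukocyte genes 0 were called, where 0.72% of all genes were called higher. All 19 had positive differences, with a median of 0.57. Without the fold limit 2 passed the test, where 2.44% of all genes passed as higher. These were LAPTM5 and AIF1, genes of leukocytes and macrophages, at 0.90 and 0.68. PTPRC, the pan-leukocyte antigen CD45, was 5.7, 5.1, 5.1 and 4.8 against a small mean of 4.54 (adjusted p = 0.175), and the T cell gene CD3E was at 3.0 to 3.7 in the large follicles. The list mean was 5.26, 4.55, 4.32 and 4.67 in the large and 3.48 to 4.62 in the small follicles, an overlap, and its part in the interferon-stimulated values was not tested. IL18 and MSR1, a cytokine and a scavenger receptor of macrophages outside these lists, were called at 1.24 ± 0.28 and 1.10 ± 0.29 (SE), the first in 11 and the second in 3 of 14 fits with an array left out.

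**Figure D4:**
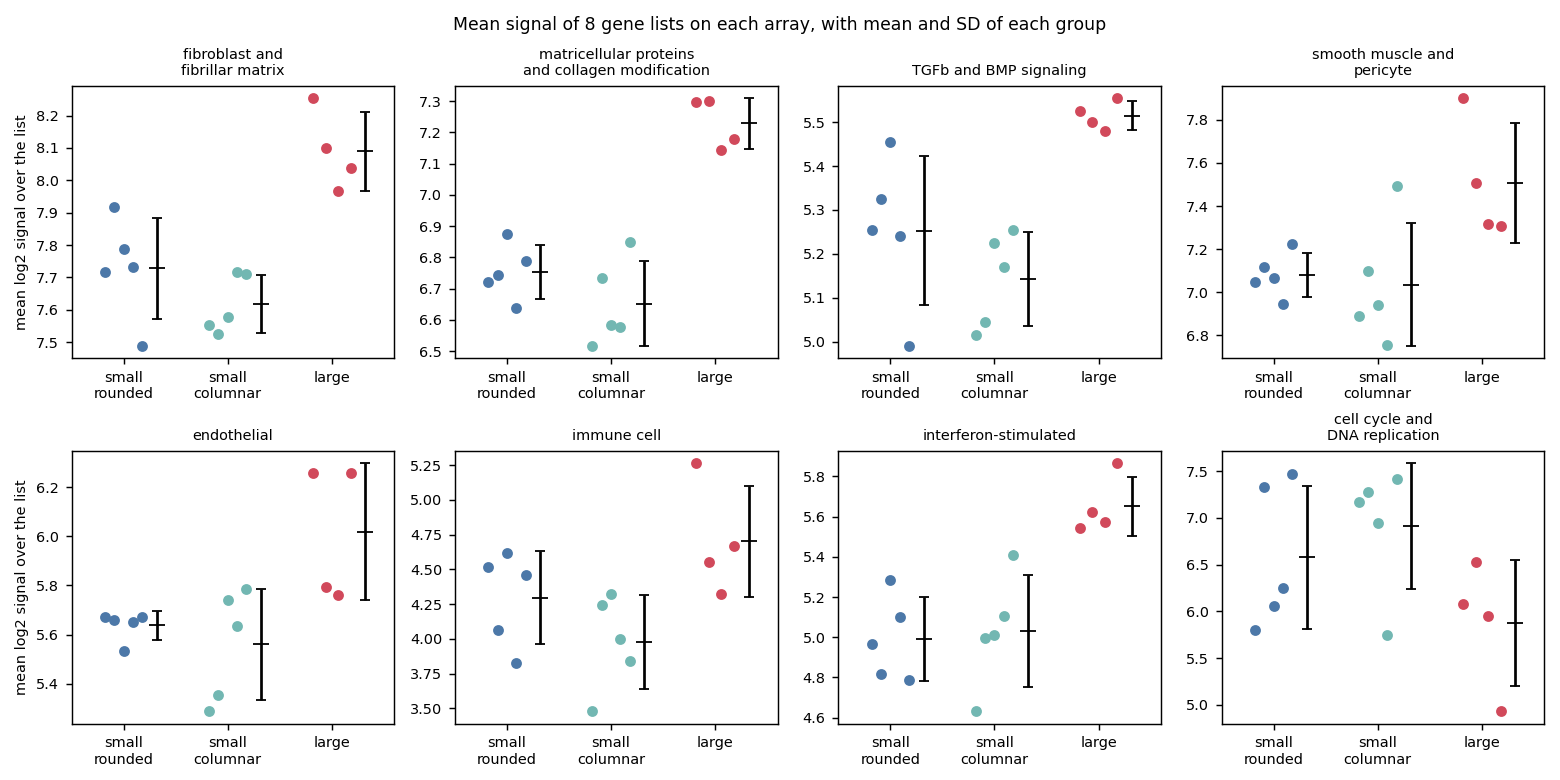
Mean log2 signal over 8 gene lists on each array, with small rounded, small columnar and large follicles on the horizontal axis and black bars for the mean and SD of each group. The large points lie above all small ones for the fibrillar matrix, matricellular, TGFβ and interferon-stimulated lists and overlap with them for the other 4, and cell cycle means run from 4.93 to 6.53 in large follicles.

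Receptors and enzymes of signaling formed a further set, described here although it was grouped after the values were seen. NTRK2, the receptor for BDNF, was 5.4, 3.6, 4.5 and 5.0 against 1.8 to 4.0 (1.67 ± 0.36 SE, adjusted p = 0.0258). With 4 of the 10 small arrays over the detection limit of 3, this probe set passed it only through the large follicles. A brighter NTRK2 probe set had the same difference of 1.67 with wider spread and did not pass (adjusted p = 0.11), and without large follicle 1, 3 or 4 the adjusted p of the called one was 0.0532, 0.0595 or 0.1. IL20RA, a cytokine receptor chain, was 4.4, 5.1, 4.4 and 4.1 against a small median of 2.8 and a small high of 4.1 (1.49 ± 0.28 SE, adjusted p = 0.0137). ADCY8, an adenylyl cyclase that makes cyclic AMP, was 4.2, 3.9, 3.8 and 3.3 against 2.0 to 3.3 (1.25 ± 0.23 SE, adjusted p = 0.0111). With 3 and 2 of the 10 small arrays over the limit, IL20RA and ADCY8 also passed it only through the large follicles. PTGER4, a receptor for prostaglandin E2, was called at 1.09 ± 0.25 (SE, adjusted p = 0.0311).

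RARRES1, a retinoid-responsive gene, was 8.8, 10, 9.5 and 9.9 against 6.1 to 9.0 (1.87 ± 0.37 SE, adjusted p = 0.0158, or 0.0636 without large follicle 4). FBXO32, a ubiquitin ligase known from muscle wasting, was called on both of its probe sets, at 5.1, 5.4, 6.7 and 6.2 against 2.6 to 4.9 on the brighter (1.86 ± 0.43 SE, adjusted p = 0.0306). SCUBE2, a secreted protein of hedgehog signaling named through the study's list, was 7.9, 7.0, 7.1 and 7.6 against 4.8 to 7.2 (1.56 ± 0.33 SE, adjusted p = 0.0239). NRIP3 was 8.1, 7.1, 6.7 and 6.6 against 3.5 to 5.5 (2.51 ± 0.35 SE, adjusted p = 0.00175) and GAS7, a cytoskeletal regulator, was 4.7, 3.8, 4.0 and 4.3 against 2.2 to 3.2 (1.54 ± 0.18 SE, adjusted p = 0.000692). Both separated fully and were called in 14 of 14 fits with an array left out. Only 1 small array was over the detection limit of 3 for GAS7, which passed it only through the large follicles. MYOC was 7.1, 5.8, 5.3 and 6.8 against 3.5 to 5.5 (1.78 ± 0.37 SE, adjusted p = 0.0193, or 0.0828 without large follicle 4). The complement regulators CD55 and CFI were called at 1.29 ± 0.28 and 1.05 ± 0.25 (SE). CFI also had 1 small array over the limit and passed it only through the large follicles. The smallest adjusted p among differences over 4-fold belonged to a probe set without a symbol, which read 7.0, 6.5, 6.7 and 6.5 against 2.8 to 4.7, or 2.92 ± 0.33 (SE, adjusted p = 0.000692).

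Chaperones and detoxifying enzymes gave 2 calls in each list, all higher, where 0.72% of all genes were called higher. Of 21 heat shock and chaperone genes, CRYAB and HSPB8 were called, both small heat shock proteins, while the median of the list was -0.11. CRYAB was 4.5, 4.0, 4.1 and 3.9 against 2.8 to 3.3 (1.12 ± 0.12 SE, adjusted p = 0.000321) and HSPB8 was 6.8, 6.1, 6.3 and 6.1 against 5.0 to 5.7 (1.08 ± 0.15 SE, adjusted p = 0.00175), both with full separation. Without large follicle 1 the differences were 0.99 and 0.92, short of 2-fold. HSPB2, another small heat shock protein, rose by 0.50 ± 0.10 (SE, adjusted p = 0.0147). For 19 of the 21 the interval excluded a 2-fold difference. Of 24 oxidative stress genes, AOX1 and EPHX1 were called, an aldehyde oxidase and an epoxide hydrolase. AOX1 was 8.3, 8.3, 8.4 and 8.0 against 6.7 to 7.5 (1.10 ± 0.13 SE, adjusted p = 0.000911), and EPHX1 was 6.2, 5.8, 6.4 and 6.3 against a small high of 5.8 (1.01 ± 0.23 SE, adjusted p = 0.0284) and called in 6 of 14 fits with an array left out.

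Immediate early genes, which cells induce within a short time of a stimulus, varied between large follicles. Their list mean was 7.27, 5.99, 6.67 and 6.51 in large follicles 1 to 4 and 5.85 to 6.70 in the small ones. Of 20 tested, RGS2 and CEBPB were called, and JUND rose by 0.67 ± 0.18 (SE, adjusted p = 0.0485). RGS2 was 7.8, 6.3, 6.6 and 6.7 against 4.1 to 6.1 (adjusted p = 0.0182, or 0.0531 without large follicle 4). CEBPB was 4.5, 4.4, 6.0 and 5.1 against 3.3 to 4.5 (adjusted p = 0.0341). The CEBPB call was lost without large 3 or 4 (adjusted p = 0.109 and 0.115) and without any of several small arrays. A dimmer CEBPB probe set differed by 0.30 (adjusted p = 0.211). Without large follicle 1 the median of the list was 0.13 in place of 0.55.

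Cell cycle and DNA replication genes had the lowest median of the lists described. All 30 had negative differences and the median was -0.94, but 0 were called and 0 passed the test without the fold limit. Over all genes 0.0543% were called lower and 0.76% passed as lower. The list mean was 6.07, 6.53, 5.95 and 4.93 in the large follicles and ran from 5.74 to 7.47 with a median of 7.05 in the small ones, so 3 of 4 large follicles were inside the small range. BUB1, a kinase of the mitotic checkpoint, had the largest difference at -1.35 ± 0.48 (SE, adjusted p = 0.118), with large values of 4.8, 5.4, 4.6 and 3.7 against 4.6 to 7.2. The interval excluded a 2-fold difference for 2 of the 30 genes.

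Steroid and cholesterol genes gave 0 calls among 14 and 18, and 0 passed the test without the fold limit. Over all genes 0.72% were called higher and 0.0543% lower, so 0 calls in lists of this size is near the share of all genes. CYB5A, which aids the androgen-forming step of CYP17A1, was 5.4, 6.2, 6.7 and 6.8 against 5.1 to 5.9 and did not pass (0.69 ± 0.22 SE, adjusted p = 0.089). The interval excluded a 2-fold difference for 11 of the 14 steroidogenic and 9 of the 18 cholesterol genes. For the others a difference of that size was not excluded. Granulosa cell genes gave 0 calls among 9, while NR5A2 rose by 0.90 ± 0.22 (SE, adjusted p = 0.0404) and AMH fell by 0.66 ± 0.16 (SE, adjusted p = 0.0332). AMH was 5.5, 5.5, 5.5 and 4.5 in the large follicles and 5.8 to 6.1 in the small ones.

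Besides WNT2B and VEGFA, the genes called lower were few. PABIR2 separated fully, at 7.5, 7.0, 6.9 and 6.5 against 7.6 to 8.5 (-1.22 ± 0.19 SE, adjusted p = 0.00345), and was called in 14 of 14 fits with an array left out. CXCL14, a chemokine, was 9.0, 9.3, 8.7 and 7.5 against 9.0 to 10.2 (-1.07 ± 0.26 SE, adjusted p = 0.0396). LIPG, endothelial lipase by the study's list, was 6.3, 5.5, 6.1 and 3.9 against 5.9 to 7.5 (-1.44 ± 0.36 SE, adjusted p = 0.0402). Large follicle 4 was the lowest for PABIR2, CXCL14, LIPG and VEGFA. Calls held in 4 of 14 fits for CXCL14 and in 2 of 14 for LIPG.

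Some calls rested on 1 probe set of a gene while others of the same gene did not differ. Of 21 called genes with more than 1 tested probe set, 6 were called on all of them, and 8 had a brighter probe set that did not pass the test. TOP1, a DNA topoisomerase, was called at 3.6, 6.4, 6.6 and 5.7 against 3.3 to 5.0 (1.67 ± 0.44 SE, adjusted p = 0.0498), in 3 of 14 fits with an array left out, and its brighter probe set differed by -0.09, with an interval of -0.26 to 0.09. HSP90AA1, a chaperone, was called at 6.8, 8.7, 8.7 and 8.3 against 6.5 to 7.5 (1.12 ± 0.28 SE, adjusted p = 0.0404), in 4 of the 14, and its brighter probe set differed by -0.11, with an interval of -0.42 to 0.20.

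SPTBN1, a spectrin of the membrane skeleton, was called in both directions. One probe set read 4.6, 6.4, 6.2 and 5.8 against 4.4 to 5.2, or 1.03 ± 0.25 (SE, adjusted p = 0.0354), and was called in 4 of the 14. Another read 2.0, 2.3, 1.9 and 1.7 against 3.2 to 3.8, with a measured difference of -1.47 ± 0.13 (SE, adjusted p = 0.000101). All 4 large values of this probe set were under the detection limit of 3, which it passed only through the small follicles, and against that limit it was at least 1.36-fold lower. The brightest differed by -0.005, with an interval of -0.21 to 0.20, at a mean signal of 10.3. For the called higher probe sets of TOP1, HSP90AA1, CHD2, DYNLT3 and SPTBN1 large follicle 1 was inside the small range and the other 3 were above it. What distinguishes these probe sets was not tested. On the called CHD2 probe set every small value was under the detection limit of 3, which it passed only through the large follicles. Against that limit it was at least 1.17-fold higher. A probe set annotated as ALB, the plasma albumin, was called at 1.16 ± 0.19 (SE, adjusted p = 0.00688), but the study's list gives it another name and the other 4 ALB probe sets differed by -0.22 to 0.28.

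**Figure D5:**
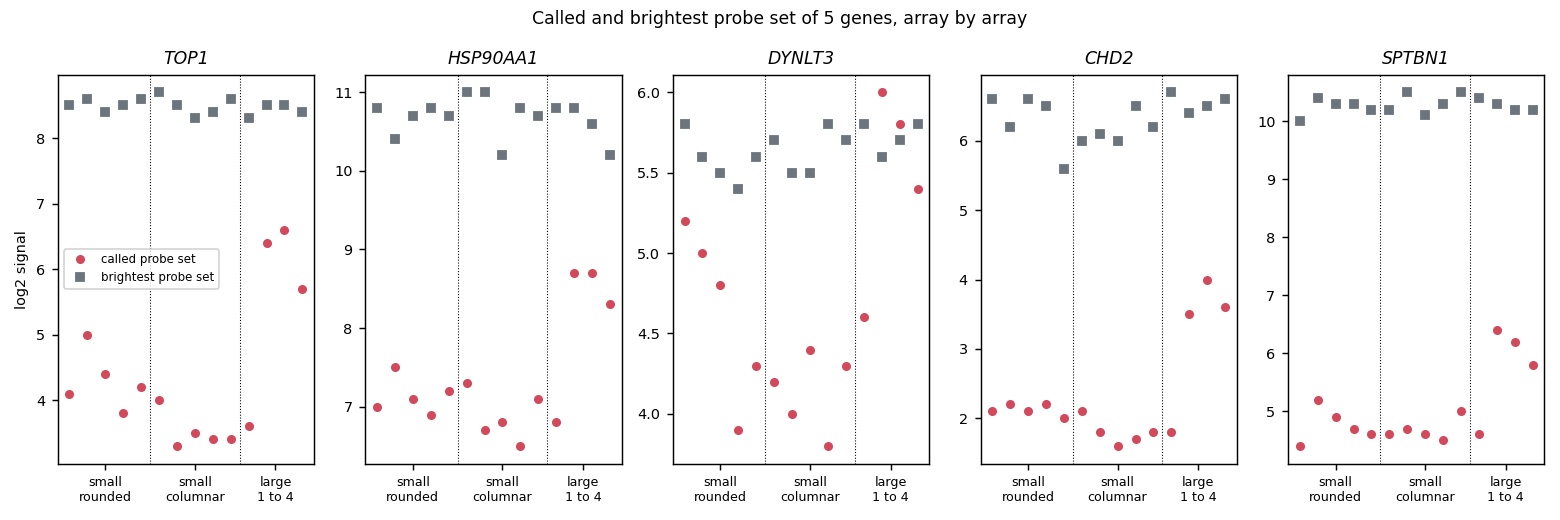
Log2 signal of the called probe set (red circles) and the brightest probe set (grey squares) of 5 genes on the 10 small and 4 large arrays, in replicate order. Red points of large follicles 2 to 4 lie above every small one, those of large follicle 1 do not, and the grey points of TOP1, HSP90AA1, DYNLT3, CHD2 and SPTBN1 show no such step. For CHD2 all red points of small follicles are under the detection limit of 3.

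Rounded and columnar follicles served the comparison unequally. Against the 5 rounded follicles alone 12 probe sets were called, and against the 5 columnar ones alone 90. The 98 higher probe sets had a median difference of 1.17 from the rounded and of 1.36 from the columnar follicles, at least 2-fold for 78 and 95 of them. For 73 of the 98, or 74.5%, the columnar mean was below the rounded one, against 54.3% of all tested probe sets. The within-group SD over all tested probe sets had a median of 0.22 in rounded, 0.19 in columnar and 0.21 in large follicles, and among the 98 it was 0.45 in rounded and 0.42 in columnar follicles. Called against the rounded follicles alone were FRZB, WNT2B, LTBP2, CRYAB, HSPB8, AOX1, CLDN11, NRIP3, GAS7 and SPTBN1 on 1 probe set each, with 2 probe sets without a symbol.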

How the data were processed

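The authors hybridised thecal RNA to 1-colour Affymetrix bovine arrays, used Partek (version 6.5 in the submitters' processing notes) for RMA and quantile normalization, and deposited 1 log2 signal per probe set with 1 decimal. Which arrays were normalized jointly is not stated. All array columns were used. In the annotation 13317 probe sets have 1 symbol, 86 several and 10724 none. Of the 37 called without a symbol, 10 took a name from the study's list.

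Large and pooled small healthy arrays were compared in limma 3.58.1 (R 4.3.3) with empirical Bayes moderation, without the 111 control probe sets. The scripts were tested on simulated data. Control means used exact permutation tests. A gene list used the brightest probe set of each gene and is described by counts and medians only. Named genes were the 20 genes called higher with the largest difference, all called lower and all called list members. Added to these were 2 with the smallest p in lists without a call, and reference genes. Not all named genes are described above, and others were chosen after their values were seen. Members, lists and rules were chosen with earlier results of these data known. Alternatives changed the test, filter, normalization, samples and thresholds. The number of arrays limits the precision.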

Additional observations from a re-analysis of the deposited data

Results flagged for a closer look

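In 196 groups of values, 10 single values stood far from the rest of their group, where chance flags about 1 in 20 groups. Small columnar follicle 1 had the highest CYP19A1 of the small follicles, at 3.9 with the next at 2.3, and the highest INHBA, a granulosa cell inhibin subunit, at 9.1 with the next at 7.7. Large follicle 4 was the lowest large follicle for GBP1 at 5.5 (next 6.0), for AMH at 4.5 (next 5.5) and for TSPO, a mitochondrial cholesterol transporter, at 6.6 (next 6.7), where the whole range is 1 step of the rounding. NPC2, which moves cholesterol out of lysosomes, was lowest in large follicle 2 at 8.4 (next 8.7). The basal lamina list mean was highest among large follicles in large 2 at 7.95 (next 7.88) and lowest among small ones in columnar 3 at 7.54 (next 7.73). The immediate early list mean was highest among small follicles in rounded 1 at 6.70 (next 6.28). The actin 3′ minus 5′ difference, a measure of RNA integrity, was highest in rounded 5 at 2.2 (next 1.6). Poly-A controls, which are RNAs added before labelling and not bovine genes, were 1.31 higher in large than in small follicles. The cause of this difference was not tested.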

How the results depend on the processing

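Against 110 calls (98 higher, 12 lower), the ordinary linear model without moderation gave 54 (49 and 5). With control probe sets kept there were 134 (122 and 12), among them all 110. A signal minimum of 5 gave 71 (63 higher), rounded follicles alone 12 (10 and 2), columnar alone 90 with 7 lower, array weights 22 lower, 1.5-fold 317 (288 and 29) and no fold limit 557 (404 and 153). Without large follicle 2 and columnar 1, the arrays with the most CYP19A1, there were 59 (54 and 5), of which 50 are among the 110. With an array left out the counts were 54 to 162, 49 to 145 higher and 5 to 20 lower. Hybridization controls differed by 0.11 to 0.24, the latter without large follicle 2 (adjusted exact permutation p = 0.028). As a replicate block, numbers gave 77 calls, 5 of them lower, but samples sharing a number correlated at -0.30 to 0.57 and 5 of 14 arrays best with their own, so the numbers were not used as pairs. Over the named genes 1886 values kept their direction and side of the threshold, 241 kept direction and lost the call, 3 gained it and 11 reversed, none of them called. Reversed were STAR (-0.0125 with the block, and -0.44, without large 3, to 0.76 with an array left out), FST (-0.035 against rounded, -0.23 without the CYP19A1 arrays, and -0.33, without large 2, to 0.57), CYP17A1 (-0.11 against columnar, -0.11 with the block, -0.12 without rounded 5, and -0.46, without large 3, to 0.57), CYP11A1 (-0.32 to 0.11, the latter without large 1) and SQLE (-1.22 to 0.0433, the latter without large 4). Of the list medians 670 stayed within the spread between arrays and 11 moved, among them heat shock (0.0133 without large 4) and TGFβ (0.37 without large 1). The causes were not tested. Called under every alternative in which they were tested were 9 probe sets, among them FRZB, WNT2B and LTBP2.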
